A study of Mus musculus with 12 samples.

Results

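The photoreceptor ribbon synapse was described here by 10 genes for its presynaptic calcium channel, its ribbon and active zone, and its adhesion to the next cell. All 10 were found by symbol among the 40202 genes of the deposited table, and all 10 passed the filter on low values. Levels came from 12 libraries of retinal RNA of C57BL/6J mice, 3 in each of 4 groups: WT retina with cp-asiNRL, WT retina with vehicle, laser CNV retina with cp-asiNRL, and laser CNV retina with vehicle. The agent cp-asiNRL, an asymmetric siRNA made to enter cells, targets Nrl, which encodes the transcription factor of rod fate, and 1 µl at 6 µg/µl was injected into the vitreous; vehicle was 0.5X PBS. CNV stands for choroidal neovascularisation, the growth of vessels under the retina that the laser induces. Every group was injected, and no uninjected retina was among the 12 libraries. The animals per library, their age and the time after injection are not given in the sources used here, so p-values measure the spread between libraries, which may be technical. The libraries hold whole retina, so fewer photoreceptors and less RNA per photoreceptor cannot be told apart.

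In darkness photoreceptors release glutamate without pause, and light slows that release. The release site is held by a synaptic ribbon, a plate of the protein RIBEYE that tethers vesicles above a row of L-type calcium channels. The channel of this terminal has the pore Cav1.4 (Cacna1f), the intracellular subunit beta 2 (Cacnb2) and the extracellular subunit alpha 2 delta 4 (Cacna2d4), and CaBP4 (Cabp4) binds the pore and sets its voltage range. In humans, variants of CACNA1F, CABP4 and CACNA2D4 cause retinal disease with a failing photoreceptor synapse. Bassoon (Bsn) anchors the ribbon, piccolo (Pclo) and RIM2 (Rims2) are scaffolds of the active zone, and Ctbp2 encodes RIBEYE. Across the cleft, ELFN1 (Elfn1) of rods binds the glutamate receptor mGluR6 of ON bipolar cells, and dystroglycan (Dag1) binds pikachurin. Cacnb2, Rims2, Bsn, Pclo, Ctbp2, Elfn1 and Dag1 are also used by other cells of the retina or of the body, so their whole-retina level is not that of photoreceptor terminals alone.

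Ctbp2 has a start for each of its proteins, which is why its internal start is shown. In GENCODE M21 (GRCm38) the transcript with a start at 133015248 on the minus strand of chromosome 7, next to the RefSeq start at 133015247, codes for 988 residues, the RIBEYE form, whereas a transcript that starts at 133123367 codes for 445 residues, the CtBP2 form used in many cell types. The deposited table has a single value for the gene, so both forms are counted together. No RefSeq promoter window was on hand for Cabp4, Cacna2d4 or Rims2, so these genes were not searched. RefSeq windows from 250 bases before to 50 bases after a start (GRCm38.p6) were on hand for 7 of the 10 genes, 10 windows in all. They were searched for exact matches, on both strands, of TAATCC, the core of the CRX and OTX2 motif, and of TGCTGA, the core of the NRL and MAF motif; these words do not overlap each other in any window shown. Of these 10 windows 1 held TAATCC, the RIBEYE window, and 0 held TGCTGA; among all 32851 RefSeq windows, 7.06% held TAATCC and 19.5% held TGCTGA. The match, read on the opposite strand as GGATTA and given in capitals, lies 121 bases before the start. The window of the channel pore gene Cacna1f is set beside it because it holds neither word. The first line is chr7:133015198-133015497, minus strand, and the second is chrX:7606853-7607152, plus strand.
Ctbp2 (RIBEYE start): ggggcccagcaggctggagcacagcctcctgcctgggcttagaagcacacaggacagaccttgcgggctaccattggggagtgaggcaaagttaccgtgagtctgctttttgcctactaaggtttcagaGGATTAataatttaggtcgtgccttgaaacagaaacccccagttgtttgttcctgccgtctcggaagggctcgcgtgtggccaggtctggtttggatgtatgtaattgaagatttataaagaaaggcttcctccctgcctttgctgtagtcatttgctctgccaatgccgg
Cacna1f: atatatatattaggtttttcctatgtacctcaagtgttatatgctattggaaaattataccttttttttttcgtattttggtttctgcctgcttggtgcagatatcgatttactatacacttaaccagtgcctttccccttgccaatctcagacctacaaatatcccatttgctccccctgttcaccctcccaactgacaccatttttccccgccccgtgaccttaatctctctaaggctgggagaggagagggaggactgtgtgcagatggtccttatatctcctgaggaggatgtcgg

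Reads in genes numbered 51298466 to 69394486 per library. Nrl, the target of cp-asiNRL, was at 399.8, 416 and 465 CPM (reads scaled to library size, with a trimmed-mean factor) in WT cp-asiNRL libraries, against 565, 505 and 553 CPM in WT vehicle libraries. After the laser it was at 324, 482 and 264 CPM with cp-asiNRL and 449, 421 and 525 CPM with vehicle. Replicate 2 of the CNV cp-asiNRL group, by its label, thus lay between CNV vehicle values, and changes that include its group are given also without it. Since it stands apart by its Nrl level, a value without it is no independent test. In comparisons that do not hold its group, leaving it out acts mainly through the estimate of spread that all groups share. The defining genes of retinal cell types were present: all 12 rod, 9 cone, 8 bipolar and 6 Müller glia genes of fixed lists had reads in every library, and the summed rod genes ranged from 11909 to 22702 CPM. Replicate 2 of the CNV cp-asiNRL group also had the highest rod sum of its group, 20764 CPM, against 13946 and 11909 CPM in replicates 1 and 3. That sum includes Nrl. In the CNV vehicle group replicate 2 stood apart too. Its 5 reactive glia genes summed to 170.4 CPM, against 61.7 and 66.5 CPM in replicates 1 and 3. Its 5 pigment epithelium genes summed to 18.3 CPM, against 28.6 and 27.8 CPM. Its rod sum, 16835 CPM, was the lowest of its group. This vehicle library stayed in every fit without CNV cp-asiNRL replicate 2, so those fits drop 1 side only.

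The gene bodies differ widely. In the coordinates of the deposited file (GRCm39) Cabp4 spans 4187 bases of chromosome 19 (4185422 to 4189608, minus strand), whereas Rims2 spans 486088 bases of chromosome 15 (39061681 to 39547768, plus strand). Cacnb2 spans 384951 bases of chromosome 2 (14608672 to 14993622, plus strand) and Pclo 348556 bases of chromosome 5 (14564924 to 14913479, plus strand). Ctbp2 lies on chromosome 7 (132588727 to 132725908, minus strand), Cacna2d4 on chromosome 6 (119213435 to 119329368, plus strand), Elfn1 on chromosome 5 (139893346 to 139960480, plus strand) and Cacna1f on the X chromosome (7473342 to 7501435, plus strand). Bsn (107973221 to 108067618) and Dag1 (108082060 to 108141176) are neighbours on the minus strand of chromosome 9, with 14441 bases between them. Values count reads over the whole span, introns included. Whether the counting used strand is not given in the sources used here, so opposite-strand genes may share reads: Lrtm2 covers 19.8% of Cacna2d4, and Gm13269 covers 7.35% of Cacnb2, while Ctbp2 and Bsn overlap 4932437C15Rik and 4930447F24Rik over 3.04% and 5.14% of their length. Cacna1f, Cabp4, Rims2, Pclo, Elfn1 and Dag1 overlap no other gene in the table.

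Per kilobase of gene span, Cabp4 was the highest of the 10 genes, with a mean of 18.9 CPM per kb over the 12 libraries and a range from 13.4 to 23.2. The 3 channel subunits lay close together: Cacnb2 at 4.87 (3.80 to 5.70), Cacna2d4 at 4.57 (3.90 to 4.92) and Cacna1f at 4.42 CPM per kb (3.59 to 4.82). Rims2 followed at 4.06 CPM per kb (3.27 to 4.75), and the ranges of these 4 genes overlap. Library by library, Cacnb2 was above Rims2 in all 12, while the other pairs of these 4 genes changed order. Pclo was at 3.19 (2.87 to 3.53) and Ctbp2 at 2.81 CPM per kb (2.73 to 2.95), again with ranges that overlap. Elfn1 was at 1.32 CPM per kb (1.11 to 1.44), above every library of Bsn at 0.972 (0.862 to 1.03) and of Dag1 at 0.811 (0.724 to 0.899). The length is that of the gene span, introns included, so this order need not be the order per length of mRNA. The lowest read count of any of the 10 genes in any library was 2253, for Dag1, so depth did not limit these values.

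The 10 genes differed in how much they varied across the 12 libraries. Ctbp2 was the steadiest, from 375 to 405 CPM, with an SD of 0.035 on the log2(CPM + 1) scale, smaller than that of all but 0.289% of the tested genes and all but 1.21% of the 911 genes within 2-fold of its level. Cabp4 varied most, from 56.2 to 97.0 CPM, with an SD of 0.24, larger than that of 97.8% of the 3798 genes within 2-fold of its level. The long genes Cacnb2 and Rims2 came next, with SDs of 0.16 each. The remaining genes, from Bsn and Pclo with SDs of 0.071 and 0.086 up to Cacna1f with 0.12, stayed nearer to Ctbp2 than to Cabp4.

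**Figure D1:**
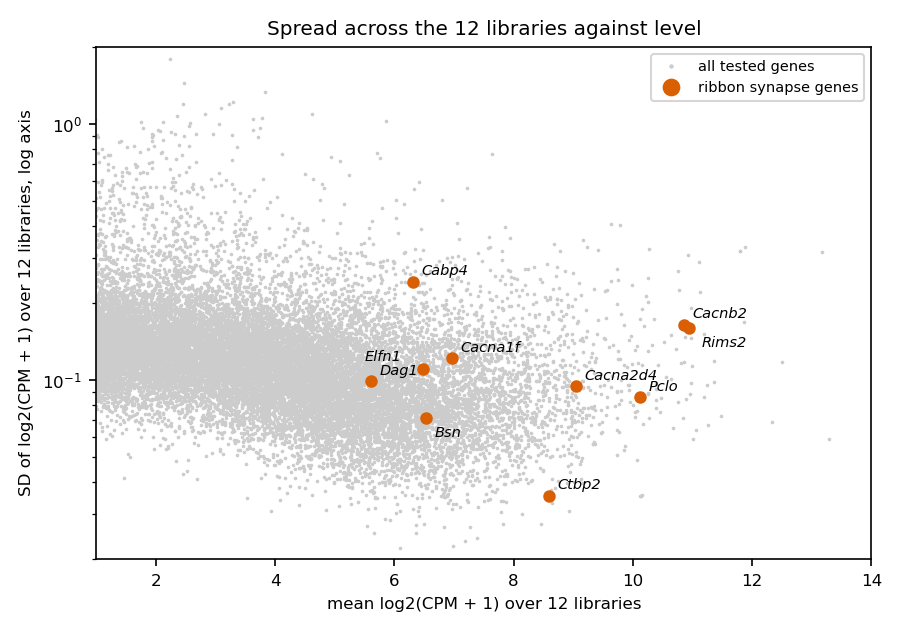
Spread against level for every tested gene. The x axis is the mean and the y axis, a log axis, the SD of log2(CPM + 1) over the 12 libraries; grey points are all tested genes and orange points the 10 ribbon synapse genes. Cabp4 (SD 0.24) lies at the upper edge and Ctbp2 (SD 0.035) at the lower edge of genes of like level.

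None of the 10 genes passed adjusted p 0.05 in limma in any of the 6 comparisons of the 12-library fit, adjusted over all 25619 tested genes. For cp-asiNRL in WT retina 0 of 10 were called, where 0.156% of all genes were, and 3 of 10 had an unadjusted p under 0.05, where 15.7% of all genes did: Cabp4, Pclo and Elfn1. In 2 of 10, Cabp4 and Pclo, the 3 cp-asiNRL libraries did not overlap the 3 vehicle libraries, where 27.3% of all genes did not. For cp-asiNRL in laser CNV retina 0 of 10 were called (0.0546% of all genes) and 1 had an unadjusted p under 0.05 (16.0% of all genes), Cabp4; 2 of 10 did not overlap (13.0%), Ctbp2 and Elfn1. For the laser under cp-asiNRL 0 of 10 were called (0% of all genes) and 2 had an unadjusted p under 0.05 (17.3%), Cacnb2 and Rims2; 2 of 10 did not overlap (17.5%), Bsn and Elfn1. For the laser under vehicle 0 of 10 were called (0%) and 2 had an unadjusted p under 0.05 (7.92%), Pclo and Elfn1; 2 of 10 did not overlap (15.6%), Cabp4 and Cacna2d4. With cp-asiNRL averaged over both retina states 0 of 10 were called (2.51%) and 2 had an unadjusted p under 0.05 (24.2%), Cabp4 and Dag1. For the interaction, the cp-asiNRL effect in laser CNV retina minus that in WT retina, 0 of 10 were called (0%) and 1 had an unadjusted p under 0.05 (6.22%), Elfn1. limma voom on the recovered reads called 0 of the 10 genes in each of these comparisons, with 2 to 3 of 10 at an unadjusted p under 0.05. Without CNV cp-asiNRL replicate 2, limma called 1 of 10 for cp-asiNRL in WT retina (3.18% of all genes) and 2 of 10 in laser CNV retina (17.2%). It then called 3 of 10 with cp-asiNRL averaged (22.6%), 4 of 10 for the laser under cp-asiNRL (17.9%), 0 of 10 for the laser under vehicle (0.266%) and 0 of 10 for the interaction (0%), the last 2 with 3 and 5 of 10 at an unadjusted p under 0.05. Comparisons share groups, so their values are not independent.

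**Figure D2:**
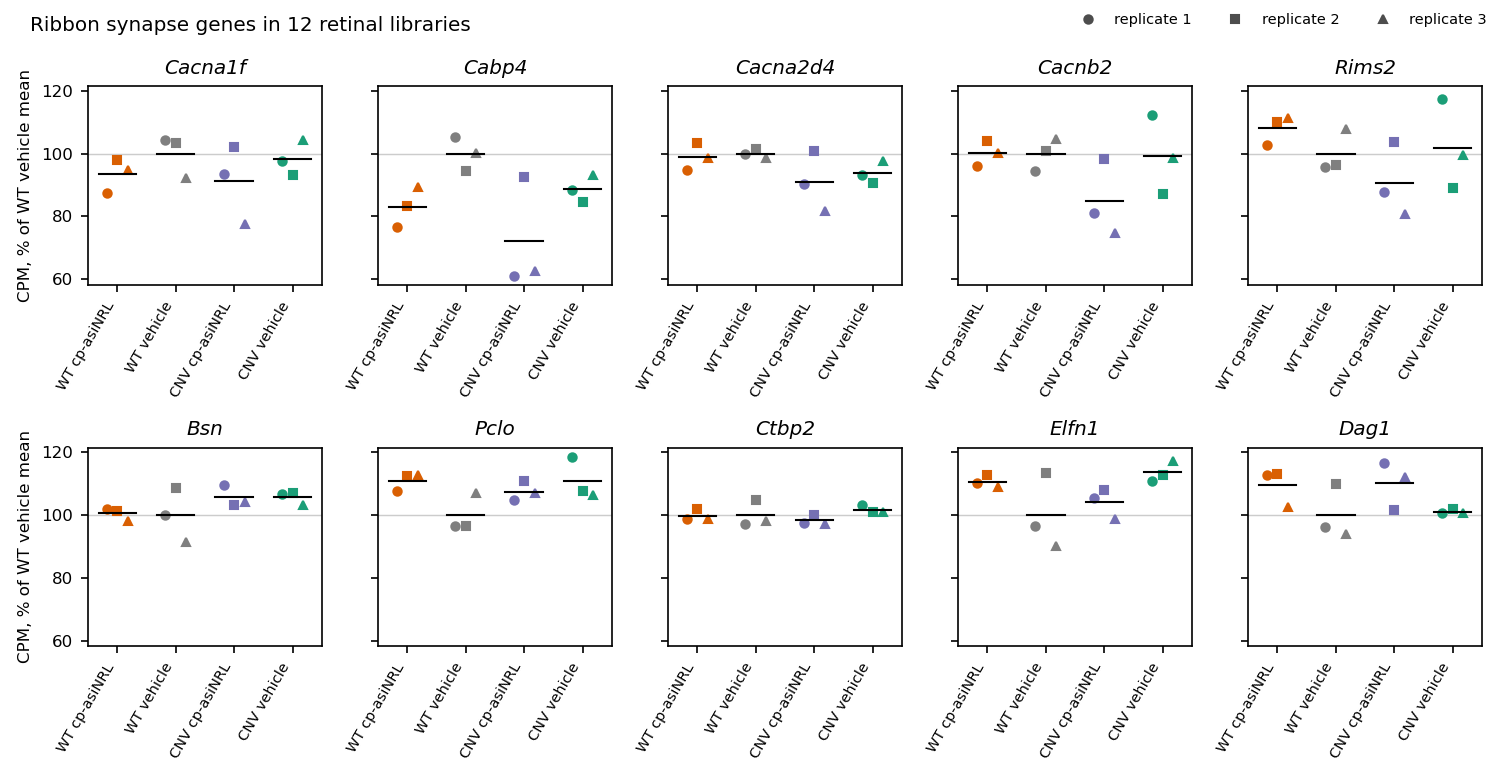
Level of each gene in the 12 libraries as a percentage of its mean in WT vehicle retina. Circles, squares and triangles are replicates 1, 2 and 3, bars are group means, and the y axis starts near 60%. Cabp4 reached the lowest values, in CNV cp-asiNRL replicates 1 and 3, and Ctbp2 stayed close to 100% throughout.

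Cabp4, the calcium sensor of the channel, had the lowest level relative to vehicle of the 10 genes in both retina states. In WT retina it was at 70.4, 76.7 and 82.3 CPM with cp-asiNRL, against 97.0, 86.9 and 92.2 CPM with vehicle. Each cp-asiNRL library was below each vehicle library, and the mean was 83.1% of the vehicle mean. The log2 change was -0.27 (SE 0.12, 95% confidence interval -0.52 to -0.01, adjusted p = 0.293 in limma), so it did not pass in the 12-library fit. It passed with only the 6 WT libraries (-0.26, adjusted p = 0.00604 in limma) and without CNV cp-asiNRL replicate 2 (-0.27, adjusted p = 0.0252 in limma). That replicate is not in this comparison. Leaving it out kept the change and moved the SE, from a spread shared by all groups, to 0.06. Over all alternatives the adjusted p in limma ran from 0.00604 to 0.662. After the laser Cabp4 was at 56.2, 85.3 and 57.5 CPM with cp-asiNRL, against 81.4, 77.9 and 85.8 CPM with vehicle. Replicates 1 and 3 were the lowest of all 12 libraries, while the library labelled replicate 2 lay within the vehicle range. The log2 change was -0.32 (SE 0.12, adjusted p = 0.25 in limma), and -0.51 (adjusted p = 0.000319 in limma) without CNV cp-asiNRL replicate 2. With each library left out in turn it ran from -0.51 to -0.22, and over all alternatives the adjusted p in limma from 0.000319 to 0.637. Averaged over both retina states the change was -0.29 (SE 0.08, adjusted p = 0.0664 in limma), with a range of adjusted p from 7.5e-05 to 0.168 over the alternatives.

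Cabp4 moved with Nrl and with the rod genes, library by library. The 12 rod genes include Nrl itself, so the rod sum and the rod counts below are not separate from it. The libraries lowest in Nrl, CNV cp-asiNRL replicates 1 and 3, were also lowest in Cabp4 and in the rod sum. All 12 rod genes had a log2 change below 0 after cp-asiNRL in WT retina (median -0.18) and in laser CNV retina (median -0.36), where the median of all tested genes was within 0.01 of 0; 0 of the 12 were called in either by limma or by limma voom, where limma called 0.156% and 0.0546% of all genes. In limma 3 of 12 had an unadjusted p under 0.05 in WT retina (15.7% of all genes) and 10 of 12 in laser CNV retina (16.0%). With CNV cp-asiNRL replicate 2 left out, 3 of 12 were called lower in WT retina (3.18% of all genes) and 12 of 12 in laser CNV retina (17.2%), there with a median of -0.56. Nrl was among the called rod genes in both retina states. Since CNV cp-asiNRL replicate 2 was singled out by its Nrl level, the rod and Nrl calls in laser CNV retina are no independent test. Cone genes (9 measured) summed to 757 to 849.8 CPM in WT cp-asiNRL and 901 to 919 CPM in WT vehicle libraries, and to 762 to 856 CPM in CNV cp-asiNRL and 728 to 912 CPM in CNV vehicle libraries. Of 9 cone genes 2 were called lower with cp-asiNRL averaged over both states (2.51% of all genes were called), against 0 of 12 rod genes. Opn1sw, the short-wave cone opsin, was lower by 0.32 and Gngt2, a cone transducin subunit, by 0.26 on the log2 scale. Called or not, 7 of 9 cone genes (median -0.15) and 12 of 12 rod genes (median -0.26) were below 0 averaged. Without CNV cp-asiNRL replicate 2, 4 of 9 cone and 12 of 12 rod genes were called lower averaged (22.6% of all genes were called). Pigment epithelium genes (5 measured, none at 0) summed to 13.6 to 15.4 CPM in WT cp-asiNRL and 21.9 to 29.1 CPM in WT vehicle libraries. In that comparison 4 of 5 were lower without overlap (27.3% of all genes did not overlap, in either direction), with a median of -0.58. By limma 0 of 5 were called (0.156% of all genes) and 4 of 5 had an unadjusted p under 0.05 (15.7%). In laser CNV retina their sums were 16.6 to 26.0 CPM with cp-asiNRL and 18.3 to 28.6 CPM with vehicle. With cp-asiNRL averaged 5 of 5 were below 0 and 2 of 5 were called lower (2.51% of all genes were called). These were Ttr, lower by 0.54, and Lrat, an enzyme of the visual cycle, lower by 0.37 on the log2 scale. Without CNV cp-asiNRL replicate 2, 4 of 5 were called lower averaged (22.6% of all genes). The rod sum ranged from 17212 to 20366 CPM in WT cp-asiNRL libraries, against 20053 to 22702 CPM in WT vehicle libraries. It ranged from 11909 to 20764 CPM in CNV cp-asiNRL libraries, against 16835 to 20616 CPM in CNV vehicle libraries. Per 1000 CPM of rod genes, Cabp4 was at 4.10 ± 0.060 CPM in WT cp-asiNRL libraries and 4.30 ± 0.033 CPM in WT vehicle libraries (SD, n = 3 each). The same ratio was 4.32 ± 0.44 in CNV cp-asiNRL libraries and 4.37 ± 0.23 in CNV vehicle libraries (SD, n = 3 each). Reactive glia genes (5 measured, none at 0) were not called, 0 of 5 in each comparison of the 12 libraries, where limma called at most 2.51% of all genes. Their sums were 58.9 to 96.6 CPM in WT cp-asiNRL libraries and 35.3 to 38.4 CPM in WT vehicle libraries. After the laser those sums were 73.8 to 221 CPM with cp-asiNRL and 61.7 to 170.4 CPM with vehicle. Their cp-asiNRL change was above 0 for 5 of 5 in WT retina and for 4 of 5 in laser CNV retina. An unadjusted p under 0.05 in limma was found for 2 of 5 in WT retina (15.7% of all genes) and 0 of 5 in laser CNV retina (16.0%). In laser CNV retina Lcn2 was at -0.50, with means of 1.12 CPM with cp-asiNRL and 2.21 CPM with vehicle. Leaving out CNV cp-asiNRL replicate 2, 3 of 5 were called higher in laser CNV retina (17.2% of all genes were called) and Lcn2 was at -0.28. The part of rods, cones, pigment epithelium or reactive glia in the values of Cabp4 was not tested.

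**Figure D3:**
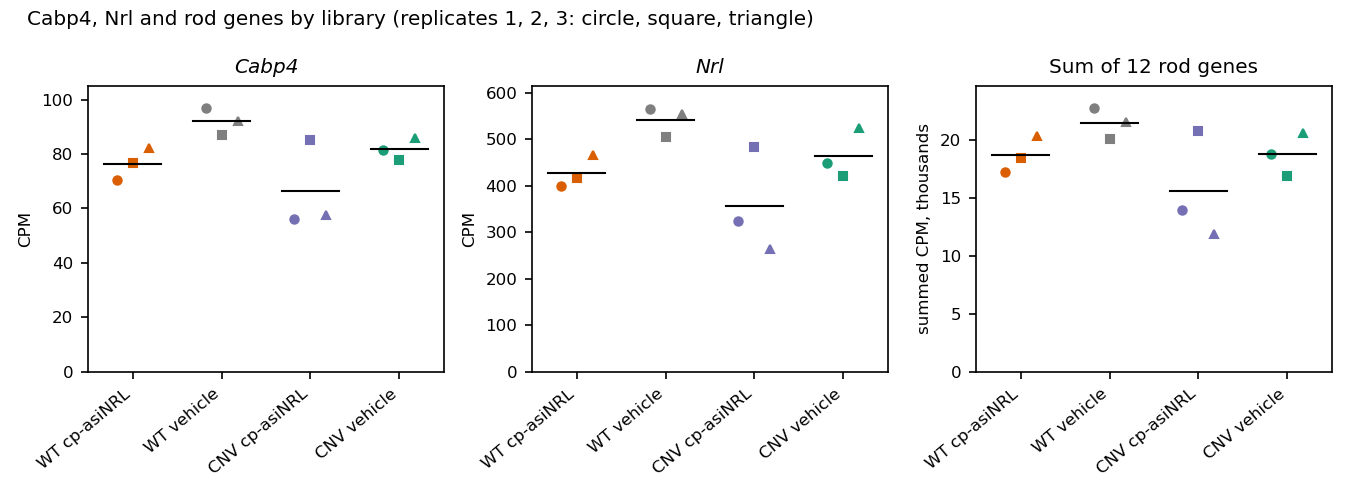
Cabp4 (CPM), Nrl (CPM) and the summed CPM of 12 rod genes, Nrl among them (axis in units of 1000 CPM), in each library. Bars are group means and each y axis starts at 0. In all 3 panels CNV cp-asiNRL replicates 1 and 3 are lowest, and the library labelled replicate 2 of that group lies near the vehicle libraries.

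The laser alone left Cabp4 at 81.4, 77.9 and 85.8 CPM, against 97.0, 86.9 and 92.2 CPM in WT vehicle retina. The groups do not overlap. The log2 change was -0.17 (SE 0.12, 95% confidence interval -0.42 to 0.08, adjusted p = 0.714 in limma). Under cp-asiNRL the laser difference was -0.23 (SE 0.12, adjusted p = 0.329 in limma), and -0.42 (adjusted p = 0.000955 in limma) without CNV cp-asiNRL replicate 2. With each library left out in turn it ran from -0.42 to -0.12, and over all alternatives the adjusted p in limma from 0.000955 to 0.765. The interaction was -0.06 (SE 0.17, adjusted p = 0.957 in limma), and -0.25 (adjusted p = 0.207 in limma) without CNV cp-asiNRL replicate 2.

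The pore gene Cacna1f was at 114, 127 and 123 CPM in WT cp-asiNRL libraries, against 136, 134 and 119.8 CPM in WT vehicle libraries. Its laser CNV values were 121, 133 and 101 CPM with cp-asiNRL and 127, 121 and 135 CPM with vehicle. The groups overlap in both states. The log2 change in laser CNV retina was -0.12 (SE 0.09, 95% confidence interval -0.30 to 0.07, adjusted p = 0.496 in limma). It was -0.20 (adjusted p = 0.0841 in limma) without CNV cp-asiNRL replicate 2, and -0.0064 without CNV cp-asiNRL replicate 3, the lowest library. That in WT retina was -0.10 (SE 0.09, -0.28 to 0.09, adjusted p = 0.628 in limma). Averaged over both states it was -0.11 (SE 0.06, adjusted p = 0.291 in limma), and -0.15 (adjusted p = 0.0493 in limma) without CNV cp-asiNRL replicate 2. With each library left out in turn the averaged change ran from -0.15 to -0.05.

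Cacna2d4, the extracellular subunit, stayed closer to its vehicle level. It was at 523, 571 and 543 CPM in WT cp-asiNRL libraries, against 551, 559.8 and 544 CPM in WT vehicle libraries (log2 change -0.02, 95% confidence interval -0.17 to 0.13). After the laser it was at 499, 557 and 452 CPM with cp-asiNRL and 514, 500.1 and 538 CPM with vehicle (-0.05, -0.20 to 0.10; -0.12 without CNV cp-asiNRL replicate 2). The lowest value was that of CNV cp-asiNRL replicate 3, as for Cacna1f. Under vehicle every laser CNV library was below every WT library, with a log2 difference of -0.09 (SE 0.07, adjusted p = 0.731 in limma). Under cp-asiNRL that difference was -0.12 (adjusted p = 0.369 in limma), and -0.20 (adjusted p = 0.0351 in limma) without CNV cp-asiNRL replicate 2. With each library left out in turn it ran from -0.20 to -0.05.

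Cacnb2 encodes the intracellular subunit that carries the pore to the membrane. In WT retina it was at 1873, 2031 and 1956 CPM with cp-asiNRL, against 1844, 1970.3 and 2043 CPM with vehicle, and the means of 1953 ± 79.0 and 1952 ± 101 CPM (SD, n = 3 each) nearly coincide. Among laser CNV libraries it was at 1585, 1918 and 1461 CPM with cp-asiNRL, against 2192, 1699.5 and 1923 CPM with vehicle. Replicates 1 and 3 of the cp-asiNRL group were below all other libraries, and the library labelled replicate 2 was within the vehicle range. The log2 change was -0.23 (SE 0.11, adjusted p = 0.316 in limma), and -0.34 (adjusted p = 0.0251 in limma) without that library. With each library left out in turn it ran from -0.34 to -0.14. For the laser under cp-asiNRL the difference was -0.25 (SE 0.11, adjusted p = 0.267 in limma), and -0.36 (adjusted p = 0.0187 in limma) without CNV cp-asiNRL replicate 2. That difference ran from -0.36 to -0.16 over the single left-out libraries.

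Among the scaffolds, Rims2 followed Cacnb2. It was at 2022, 2165 and 2193 CPM in WT cp-asiNRL libraries, against 1886, 1895 and 2124 CPM in WT vehicle libraries (log2 change 0.11, SE 0.11). Laser CNV libraries had 1729, 2038 and 1587 CPM with cp-asiNRL, against 2310.0, 1749 and 1960.0 CPM with vehicle (-0.17, SE 0.11, adjusted p = 0.454 in limma). That change was -0.27 (adjusted p = 0.0881 in limma) without CNV cp-asiNRL replicate 2 and -0.064 without CNV vehicle replicate 1. CNV vehicle replicate 1 was the highest of all 12 libraries for both genes, and CNV cp-asiNRL replicate 3 the lowest. The laser difference of Rims2 under cp-asiNRL was -0.26 (SE 0.11, adjusted p = 0.261 in limma), and -0.36 (adjusted p = 0.0254 in limma) without CNV cp-asiNRL replicate 2. With each library left out in turn it ran from -0.36 to -0.18. Over the 12 libraries the Pearson correlation of Rims2 with Cacnb2 was 0.94, the highest of the 45 pairs among the 10 genes, given as a description since libraries share groups. CNV vehicle replicate 1 was also the highest library in the summed level of the 592 other tested genes over 300 kb, at 228954 CPM. CNV cp-asiNRL replicates 1 and 3, the lowest in Cacnb2 and Rims2, had 220227 and 213784 CPM in that sum. Both lay inside the range of the WT libraries of either injection (199789 to 220397 CPM). The sum was chosen after the data were seen, and the part of gene span in the values of Cacnb2 and Rims2 was not tested.

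**Figure D4:**
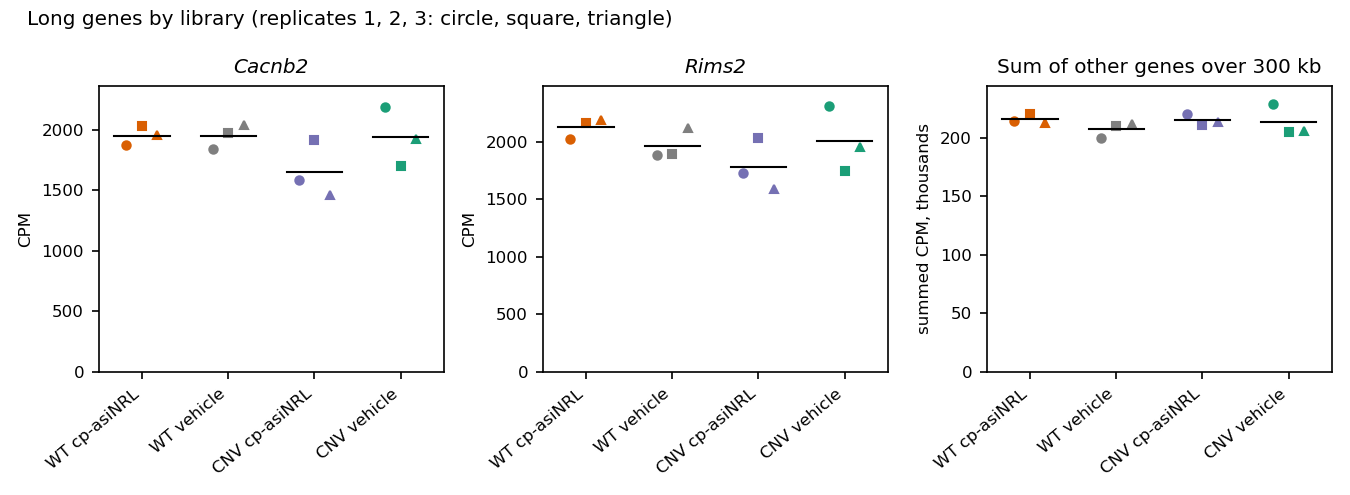
Cacnb2 (CPM), Rims2 (CPM) and the summed CPM (axis in units of 1000 CPM) of the 592 other tested genes with a span over 300 kb, in each library; bars are group means and each y axis starts at 0. CNV vehicle replicate 1 is highest in all 3 panels, and CNV cp-asiNRL replicates 1 and 3 are low for Cacnb2 and Rims2 and not for the sum.

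Pclo, a scaffold whose short form serves ribbon synapses, was at 1117, 1165 and 1169.6 CPM in WT cp-asiNRL libraries, against 1002, 999 and 1109 CPM in WT vehicle libraries. Each cp-asiNRL library was above each vehicle library and the mean was 111% of the vehicle mean. The log2 change was 0.15 (SE 0.07, adjusted p = 0.305 in limma), and 0.09 with the trend with gene span removed. After the laser Pclo was at 1085, 1148 and 1109 CPM with cp-asiNRL, against 1230.2, 1116 and 1104 CPM with vehicle, and the groups overlap (-0.04, 95% confidence interval -0.19 to 0.10; -0.07 without CNV cp-asiNRL replicate 2). The laser difference under vehicle was 0.15 (SE 0.07, adjusted p = 0.631 in limma).

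Bsn, which holds the ribbon to the membrane, was at 90.9, 90.3 and 87.5 CPM in WT cp-asiNRL libraries, against 89.1, 96.8 and 81.4 CPM in WT vehicle libraries. Its laser CNV values were 97.6, 91.9 and 92.8 CPM with cp-asiNRL and 95.2, 95.2 and 92.0 CPM with vehicle. The 95% confidence intervals of its cp-asiNRL change were -0.11 to 0.13 in WT and -0.12 to 0.12 in laser CNV retina. Under cp-asiNRL each laser CNV library was above each WT library with a log2 difference of 0.07 (SE 0.06, adjusted p = 0.529 in limma). Without CNV cp-asiNRL replicate 2 that difference was 0.09, and the cp-asiNRL change in laser CNV retina was 0.016.

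Ctbp2, the ribbon gene, was at 381, 393 and 381 CPM in WT cp-asiNRL libraries, against 375, 405 and 379 CPM in WT vehicle libraries. Laser CNV libraries had 377, 386 and 375 CPM with cp-asiNRL, against 398, 389 and 389 CPM with vehicle. There each cp-asiNRL library was below each vehicle library by a log2 change of only -0.05 (SE 0.05, adjusted p = 0.639 in limma), or -0.06 without CNV cp-asiNRL replicate 2. The 95% confidence intervals were -0.11 to 0.10 for cp-asiNRL in WT retina, -0.15 to 0.06 in laser CNV retina, -0.12 to 0.09 for the laser under cp-asiNRL and -0.08 to 0.13 for the laser under vehicle. These bounds hold for the sum of the RIBEYE and CtBP2 forms and not for either form.

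**Figure D5:**
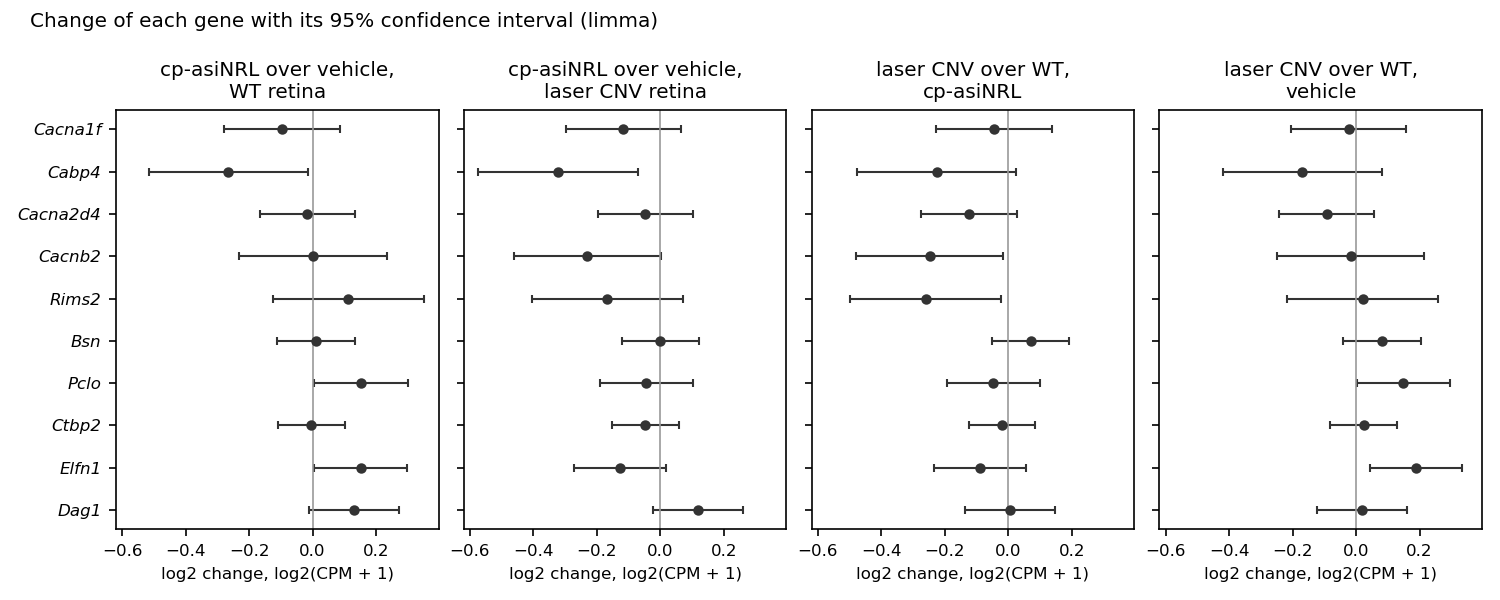
Log2 change of each gene with its 95% confidence interval from the 12-library limma fit, on the log2(CPM + 1) scale, for cp-asiNRL over vehicle in WT and in laser CNV retina and for laser CNV over WT under cp-asiNRL and under vehicle. Cabp4 lies below 0 in all 4 panels, and the intervals of Ctbp2 are the narrowest.

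Elfn1 and Dag1 carry the adhesion of the terminal. Elfn1 was at 90.9, 93.0 and 89.8 CPM in WT cp-asiNRL libraries, against 79.6, 93.4 and 74.4 CPM in WT vehicle libraries (log2 change 0.15, SE 0.07, adjusted p = 0.301 in limma). That change was 0.24 without WT vehicle replicate 2 and 0.081 without WT vehicle replicate 3. After the laser it was at 86.8, 88.9 and 81.5 CPM with cp-asiNRL, against 91.4, 93.0 and 96.6 CPM with vehicle (-0.13, SE 0.07, adjusted p = 0.368 in limma). Each cp-asiNRL library was thus below each vehicle library in laser CNV retina, while in WT retina vehicle replicate 2 was above all 3 cp-asiNRL libraries. The interaction was -0.28 (SE 0.10, 95% confidence interval -0.48 to -0.07, adjusted p = 0.779 in limma; unadjusted p = 0.0115 in limma). Without CNV cp-asiNRL replicate 2 the interaction was -0.30 (adjusted p = 0.175 in limma) and the change in laser CNV retina -0.15. Under vehicle Elfn1 averaged 93.7 ± 2.67 CPM in laser CNV and 82.4 ± 9.84 CPM in WT libraries (SD, n = 3 each), a log2 difference of 0.19 (SE 0.07, adjusted p = 0.606 in limma). Under cp-asiNRL each laser CNV library was below each WT library, with a log2 difference of -0.09 (SE 0.07, adjusted p = 0.501 in limma), or -0.12 without that library.

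Dag1 was at 51.4, 51.6 and 46.8 CPM in WT cp-asiNRL libraries, against 43.9, 50.1 and 42.8 CPM in WT vehicle libraries. Its laser CNV values were 53.1, 46.4 and 51.1 CPM with cp-asiNRL, against 45.8, 46.4 and 45.9 CPM with vehicle. Only CNV cp-asiNRL replicate 2 reached down to the vehicle range in that comparison. Averaged over both states the log2 change was 0.13 (SE 0.05, 95% confidence interval 0.03 to 0.23, adjusted p = 0.127 in limma), and 0.15 (adjusted p = 0.0199 in limma) without that library. With each library left out in turn it ran from 0.10 to 0.16, and over all alternatives the adjusted p in limma from 0.0199 to 0.276. Dag1 thus ran opposite to Cabp4, with a Pearson correlation of -0.80 over the 12 libraries, the lowest of the 45 pairs, given as a description.

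Further genes of photoreceptor terminals were taken from 2 fixed lists. Of 20 genes of the release machinery, 0 were called by limma for cp-asiNRL in WT or in laser CNV retina, where 0.156% and 0.0546% of all genes were. An unadjusted p under 0.05 was found for 8 of 20 in WT retina (15.7% of all genes) and 7 of 20 in laser CNV retina (16.0%). Their median log2 change was -0.07 in WT retina (12 of 20 below 0) and -0.05 in laser CNV retina (15 of 20 below 0). With cp-asiNRL averaged over both states 1 of 20 was called, where 2.51% of all genes were, and 16 of 20 were below 0 with a median of -0.08. The called gene was Cplx4, a complexin of photoreceptor terminals that binds the fusion machinery. It was at 213, 218 and 226 CPM in WT cp-asiNRL libraries, against 249, 248 and 259.8 CPM in WT vehicle libraries. Laser CNV libraries had 172, 239 and 182 CPM with cp-asiNRL, against 245, 233 and 249 CPM with vehicle. Averaged over both states Cplx4 fell by 0.26 on the log2 scale (SE 0.06, adjusted p = 0.049 in limma), but the call was lost under 16 of 18 alternatives, with adjusted p from 5.24e-05 to 0.132 in limma; limma voom gave 0.052 and called 0 of 20. Its change was -0.33 without CNV cp-asiNRL replicate 2. Then 12 of 20 were called averaged (9 lower; 22.6% of all genes), 9 of 20 for cp-asiNRL in laser CNV retina (6 lower; 17.2%) and 3 of 20 in WT retina (all lower; 3.18%). The pattern over libraries is that of Cabp4, with CNV cp-asiNRL replicates 1 and 3 lowest.

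Other release genes did not pass in the 12-library fit. Averaged over both states Rab3a, a vesicle GTPase, was at -0.14 (adjusted p = 0.0687), Unc119, which binds RIBEYE, at -0.25 (adjusted p = 0.0833) and Stx3, the syntaxin of ribbon synapses, at -0.18 (adjusted p = 0.0885, all in limma). These were called without CNV cp-asiNRL replicate 2, at -0.16 for Rab3a, -0.33 for Unc119 and -0.24 for Stx3. In WT retina Rab3a was at -0.25 (adjusted p = 0.0873), Sv2a, a vesicle glycoprotein, at -0.18 (adjusted p = 0.0959), Unc13a, a priming factor, at -0.19 (adjusted p = 0.159) and Cplx3, another complexin, at -0.23 (adjusted p = 0.21, all in limma). In laser CNV retina the smallest p belonged to Cplx4 (-0.31), Stx3 (-0.24), Sv2b (-0.17) and Unc13b (-0.23), with adjusted p from 0.218 to 0.282 in limma. All 4 were called without CNV cp-asiNRL replicate 2, at -0.45 for Cplx4, -0.36 for Stx3, -0.24 for Sv2b and -0.33 for Unc13b. Unc119 (-0.41) and Slc17a7 (-0.28) were then called lower too. Called higher in the same fit were 3 release genes, Erc1 (0.23), Rimbp2 (0.24) and Rims1 (0.16). For the laser 0 of 20 were called under either injection (0% of all genes), by limma and by limma voom alike. An unadjusted p under 0.05 was found by both for 2 of 20 under vehicle (7.92% of all genes in limma) and for 4 of 20 under cp-asiNRL (17.3%). Limma called 7 of 20 without CNV cp-asiNRL replicate 2 under cp-asiNRL (17.9%).

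Of 17 genes for adhesion and for the postsynaptic partners, 0 were called by limma or by limma voom in any comparison of the 12 libraries, where limma called at most 2.51% of all genes. After cp-asiNRL 3 of 17 had an unadjusted p under 0.05 in WT retina (15.7% of all genes) and 4 of 17 in laser CNV retina (16.0%), with list medians of 0.01 and -0.05. Averaged over both states Lrit1, a leucine-rich repeat protein of the photoreceptor synapse whose span overlaps Lrit2 on the same strand and Rgr on the other, was at -0.18 (adjusted p = 0.0746), and Rgs11, which shuts off the mGluR6 signal in ON bipolar cells, was at -0.13 (adjusted p = 0.117, both in limma). Egflam, which encodes pikachurin, the partner of dystroglycan, was at -0.11 (SE 0.05, adjusted p = 0.184 in limma). Without CNV cp-asiNRL replicate 2 Lrit1 (-0.22) and Egflam (-0.15) were called and Rgs11 (-0.12) was not. For the laser under cp-asiNRL Dmd, whose product links dystroglycan to actin, was at -0.31 (SE 0.12, adjusted p = 0.237 in limma), and -0.41 (adjusted p = 0.018 in limma) without that library. Of the 17, limma without it called 4 lower for cp-asiNRL in laser CNV retina, 3 lower averaged and 3 lower for the laser under cp-asiNRL (17.2%, 22.6% and 17.9% of all genes), and 0 in WT retina.

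Genes with the most similar pattern were taken among the tested genes with a mean of at least 10 CPM, by Pearson correlation of log2(CPM + 1) over the 12 libraries, as a description of libraries that share groups and depth. For Cabp4 they were Icmt (0.990), Tub (0.986) and Serinc4 (0.983). For Cacnb2 they were Ktn1 (0.993), Kif21a (0.985) and Gucy2f (0.982), the last of which encodes a photoreceptor guanylate cyclase. Rims2 was most similar to Rabgap1l (0.989), Emsy (0.986) and Thoc2 (0.983). Cacna1f was most similar to Slx4 (0.963), Pclo to Homer1 (0.960), Dag1 to Ksr2 (0.949), Bsn to P4ha2 (0.935), Elfn1 to Gm38426 (0.924) and Ctbp2 to Slc1a2 (0.892).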

How the data were processed

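RNA of 12 mouse retinal libraries was sequenced after poly(A) selection and a stranded library kit, per the labels' protocols. Per the submitters' processing notes, HISAT2 2.1.0 and featureCounts 1.6.0 were used with mm10, but the table's chromosome accessions belong to GRCm39, so its coordinates are given as GRCm39. The deposited signal values stand under columns named FPKM, per the file headers. Every value times the gene length was whole within 1e-06 (482424 of 482424 values). It is therefore reads per base of gene length, not scaled to the library total, and that length equals the genomic span for all 40200 genes with a single locus.

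Reads were recovered as signal times length and scaled to CPM by a trimmed mean (trims of 30% and 5%). Kept were the 25619 genes with 15 reads in total whose CPM matched 10 reads of a median library in 3 or more libraries. The test was limma 3.58.1 with trend (R 4.3.3) on log2(CPM + 1) over 4 group means of 12 libraries, with Benjamini-Hochberg adjustment at 0.05 over all tested genes; changes are on that scale, which understates those of low genes. A negative binomial count test was planned only for deposited values that are whole counts. As deposited they are densities, and the test was not run on the recovered reads. On these reads limma voom took its place, as an alternative chosen after seeing the data. The sum over genes longer than 300 kb, and the lists without CNV cp-asiNRL replicate 2, were also chosen then. The 10 genes and the lists were chosen with earlier results of these data known. All 10 genes are named throughout. Of each list the genes called in the 12-library fit, Lcn2 (chosen after its values were seen) and up to 4 with the smallest p are named. Genes called only without CNV cp-asiNRL replicate 2 are named in part, after their values were seen. The 3 most similar genes per gene were taken, of which not all are printed. The fit was tested on simulated counts. Chi-square per gene between replicates of a group was 4.06 to 49.7, so no library was a copy. Promoter windows are from RefSeq (GRCm38.p6).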

Additional observations from a re-analysis of the deposited data

How the results depend on the processing

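The counts of called genes rested on the fit, and changes near 0 had no firm sign. Of 1120 alternative values for the 10 genes, 1046 kept sign and call, 11 became significant and 63 changed sign. Over all genes, cp-asiNRL in WT retina gave 40 calls, against 23 with median-ratio size factors, 0 with no filter on low values, 2150 with only the 6 libraries compared, 3 with limma voom and 4 with the trend with gene span removed. In laser CNV retina it gave 14, against 3 with no filter and 0 with only the libraries compared; averaged over both states it gave 644, against 124 with no filter and 358 with the span trend removed. The laser under vehicle gave 158 calls with only the libraries compared, against 0. With only the WT libraries 1 of the 10 genes, Cabp4, was called. The replicate numbers showed no steady pairing of the libraries, with correlations of deviations from -0.52 to 0.31. Between WT cp-asiNRL and WT vehicle the own number was the best match for all 3 replicates, at only 0.02 to 0.11. Elsewhere it was so only for replicate 1 between CNV and WT cp-asiNRL. The fit with the replicate number as a block left 1, 4 and 69 calls for cp-asiNRL in WT retina, in laser CNV retina and averaged, and none of the 10 genes was called in it. The quasi-likelihood count test, planned only for deposited whole counts, was not run on the recovered reads.

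Leaving out each library in turn gave 1 to 812 calls for cp-asiNRL in WT retina, 0 to 4406 in laser CNV retina, 58 to 5777 averaged, 0 to 68 for the laser under vehicle and 0 to 4573 under cp-asiNRL. The highest counts all came without CNV cp-asiNRL replicate 2. Of the 10 genes this called 0 to 1, 0 to 2 and 0 to 3 for cp-asiNRL in WT, laser CNV and averaged, and 0 to 4 for the laser under cp-asiNRL; for the laser under vehicle and the difference of effects it called 0.

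With median-ratio size factors Ctbp2 was at 0.010 for cp-asiNRL in WT retina and Dag1 at -0.0049 for the laser under cp-asiNRL; with no filter Ctbp2 was at 0.00078 for cp-asiNRL in WT retina. With the span trend removed, cp-asiNRL in WT retina gave -0.063 for Cacnb2 and -0.033 for Bsn, the laser under vehicle -0.033 for Rims2 and -0.012 for Ctbp2, the laser under cp-asiNRL -0.0063 for Dag1, and the averaged effect -0.0396 for Bsn, -0.012 for Pclo and -0.026 for Elfn1. Of the values without 1 library, cp-asiNRL in WT retina ranged from -0.048 to 0.017 for Cacna2d4, -0.0396 to 0.035 for Cacnb2, -0.052 to 0.072 for Bsn and -0.025 to 0.0301 for Ctbp2. In laser CNV retina the ranges were -0.12 to 0.028 for Cacna2d4, -0.026 to 0.016 for Bsn and -0.073 to 0.0021 for Pclo. For the laser under vehicle they were -0.0799 to 0.015 for Cacna1f, -0.11 to 0.074 for Cacnb2, -0.084 to 0.11 for Rims2 and -0.025 to 0.086 for Dag1, and under cp-asiNRL -0.13 to 0.066 for Cacna1f and -0.039 to 0.061 for Dag1. Averaged, they were -0.0701 to 0.0061 for Cacna2d4, -0.077 to 0.026 for Rims2, -0.026 to 0.035 for Bsn and -0.023 to 0.058 for Elfn1. For the difference of effects they were -0.11 to 0.089 for Cacna1f, -0.25 to 0.048 for Cabp4, -0.11 to 0.044 for Cacna2d4, -0.072 to 0.051 for Bsn and -0.0802 to 0.043 for Dag1. Of 60 changes of the 10 genes, 46 moved by over 1.5 times, or turned, without some library. The cause of these changes was not tested.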
